A study of Homo sapiens with 12 samples.

Results

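Here 2 hairpins aimed at the same gene are set against each other: RNA of MD901 cells carrying shCREBBP.572 against RNA of MD901 cells carrying shCREBBP.3753. The study profiled 12 libraries in 4 groups of 3, and the comparison takes 6 of these 12, chosen by their hairpin label alone: shCREBBP.572 replicates 1 to 3 and shCREBBP.3753 replicates 1 to 3. MD901 is an established human cell line from a germinal centre type of diffuse large B-cell lymphoma, given in the series text as wild type for CREBBP. No other agent is named in the labels, so all 6 libraries share the line, the serum-containing culture medium and the preparation from total RNA depleted of ribosomal RNA. The other 6 libraries carried shCREBBP.1027 or a scramble hairpin and enter no test here. No label states that replicates were grown apart, and the p-values therefore speak of the spread among these 6 libraries, part of which could be technical.

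CREBBP and its close relative EP300 are acetyltransferases that modify histones, mostly at enhancers, and other nuclear proteins. In germinal centre B cells CREBBP is known as a gene often mutated in lymphoma and as an activator of antigen presentation genes. Short hairpins are cut by DICER1 into guide strands that direct AGO proteins to RNAs with a matching sequence, and a guide can also reach RNAs with which it pairs only through its seed. Double-stranded RNA is sensed by proteins such as IFIH1 and DDX58. This sensing leads through type I interferon, its receptor and factors such as STAT2 and IRF9 to the transcription of interferon-stimulated genes.

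The total of all values per library was 653391, 642492 and 666138 FPKM with shCREBBP.572, against 693459, 690196 and 722976 FPKM with shCREBBP.3753. FPKM give fragments per length of transcript and per number of fragments mapped in the library. The number of reads is unknown; relative to shCREBBP.3753 replicate 1, depth was estimated at 0.631, 0.652 and 0.719 with shCREBBP.572, against 1.00, 0.978 and 0.655 with shCREBBP.3753. Libraries of 1 hairpin resembled each other more than those of the other: Spearman correlations across rows were 0.97 to 0.977 among shCREBBP.572 libraries, 0.983 to 0.985 among shCREBBP.3753 libraries and 0.939 to 0.951 between the hairpins. The line's B-cell identity was visible in CD79A, CD79B and PAX5, while the row of CD22 was listed at 0 in all 6 libraries. B-cell markers summed to 168 to 176 FPKM with shCREBBP.572 and to 317 to 341 FPKM with shCREBBP.3753. Germinal centre B-cell markers summed to 152 to 162 FPKM and to 168 to 182 FPKM in the same order, and BCL6 (100.2 to 110.4 FPKM with shCREBBP.572 and 105 to 117 FPKM with shCREBBP.3753) and PAX5 (21.3 to 23.6 FPKM with shCREBBP.572 and 20.4 to 23.6 FPKM with shCREBBP.3753) were not called. Of markers of other cells, 17 T and NK cell genes with a row summed to 87.8 to 94.5 FPKM with shCREBBP.572 and 79.7 to 81.7 FPKM with shCREBBP.3753, with CD3D and GNLY at 0 in all 6. PRF1 and ZAP70 were the most abundant of them. The row of KLRK1, an activating receptor, with KLRC4 was at 2.44, 4.18 and 2.86 FPKM with shCREBBP.572, against 11.3, 10.7 and 12.2 FPKM with shCREBBP.3753, so it was lower with shCREBBP.572 while PRF1 was higher, at 62.6, 54.7 and 58.3 FPKM with shCREBBP.572, against 39.7, 39.6 and 40.4 FPKM with shCREBBP.3753. The 13 myeloid markers summed to 2.67 to 4.13 and 3.45 to 4.0 FPKM, and the 11 fibroblast and epithelial markers, 5 of them at 0 throughout, to 1.04 to 2.52 and 1.04 to 1.28 FPKM, with shCREBBP.572 and shCREBBP.3753 in that order. In bulk RNA, fewer cells of a kind and less RNA per cell cannot be told apart.

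CREBBP itself (chromosome 16, 3775056 to 3930121, hg19, the interval of the assembled locus) was at 7.99, 7.53 and 6.91 FPKM with shCREBBP.572, against 5.92, 6.16 and 6.1 FPKM with shCREBBP.3753. The 3 shCREBBP.572 libraries all lay above the 3 shCREBBP.3753 libraries, by a small margin. The log2 difference was 0.26 ± 0.08 (SE; limma adjusted p = 0.0415; two-sided exact permutation p = 0.1, the smallest that 3 libraries against 3 allow), with a 95% interval of 0.07 to 0.45. That call was lost when the 12 libraries shared the fit (limma adjusted p = 0.381), with no filter on low values (0.111), after correction for GC content and length (difference 0.13, 0.226), and when any of 5 of the 6 libraries was left out (0.0923 to 0.12). It was kept without shCREBBP.572 replicate 3 (0.0358). The scramble libraries held 13.7, 7.1 and 5.82 FPKM, a range that takes in all 6 values, so every direction below belongs to libraries so labelled and not to a measured loss of CREBBP. EP300, which shares its row with MIR1281 (chromosome 22, 41488465 to 41576128), differed more. Its row stood at 16.3, 16.5 and 13.5 FPKM with shCREBBP.572, against 6.56, 7.1 and 6.16 FPKM with shCREBBP.3753, and the groups were far apart. The log2 difference was 1.11 ± 0.10 (SE; limma adjusted p = 0.000653), and the shCREBBP.572 mean was 2.34 times the shCREBBP.3753 mean.

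Differences are throughout shCREBBP.572 minus shCREBBP.3753 on the log2(FPKM + 1) scale, and a row is called higher or lower where its limma p, adjusted by the Benjamini-Hochberg method over 11757 rows, is under 0.05. Of these rows 2080 were higher with shCREBBP.572 (17.7%) and 2507 lower (21.3%), so 39% of the transcriptome measured here was called between hairpins to the same gene. Most differences were small. The middle 90% of rows lay between -0.82 and 0.76, the median of all rows was -0.012, and 205 called rows reached 1 or more and 321 reached -1 or less. Every shCREBBP.572 library was above every shCREBBP.3753 library in 24.4% of rows and below in 27.8%. Any count of a gene list below is to be read against these shares. List members named below are mostly the called ones with the largest differences, so their separate groups follow largely from that choice. Scaling by the upper quartile, which moved the median of all rows to 0.036, changed the split from 54.7% of calls lower to 46.3% (2518 higher and 2171 lower), so the balance of directions depends on scaling.

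GC content moved with the direction. In the fifth of rows richest in GC, 26.3% were higher with shCREBBP.572 and 13.9% lower, with a median difference of 0.11. In the fifth poorest in GC, 12.4% were higher and 25.9% lower, with a median of -0.09. A correction for GC content and length left 2158 rows higher and 2589 lower.

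**Figure D1:**
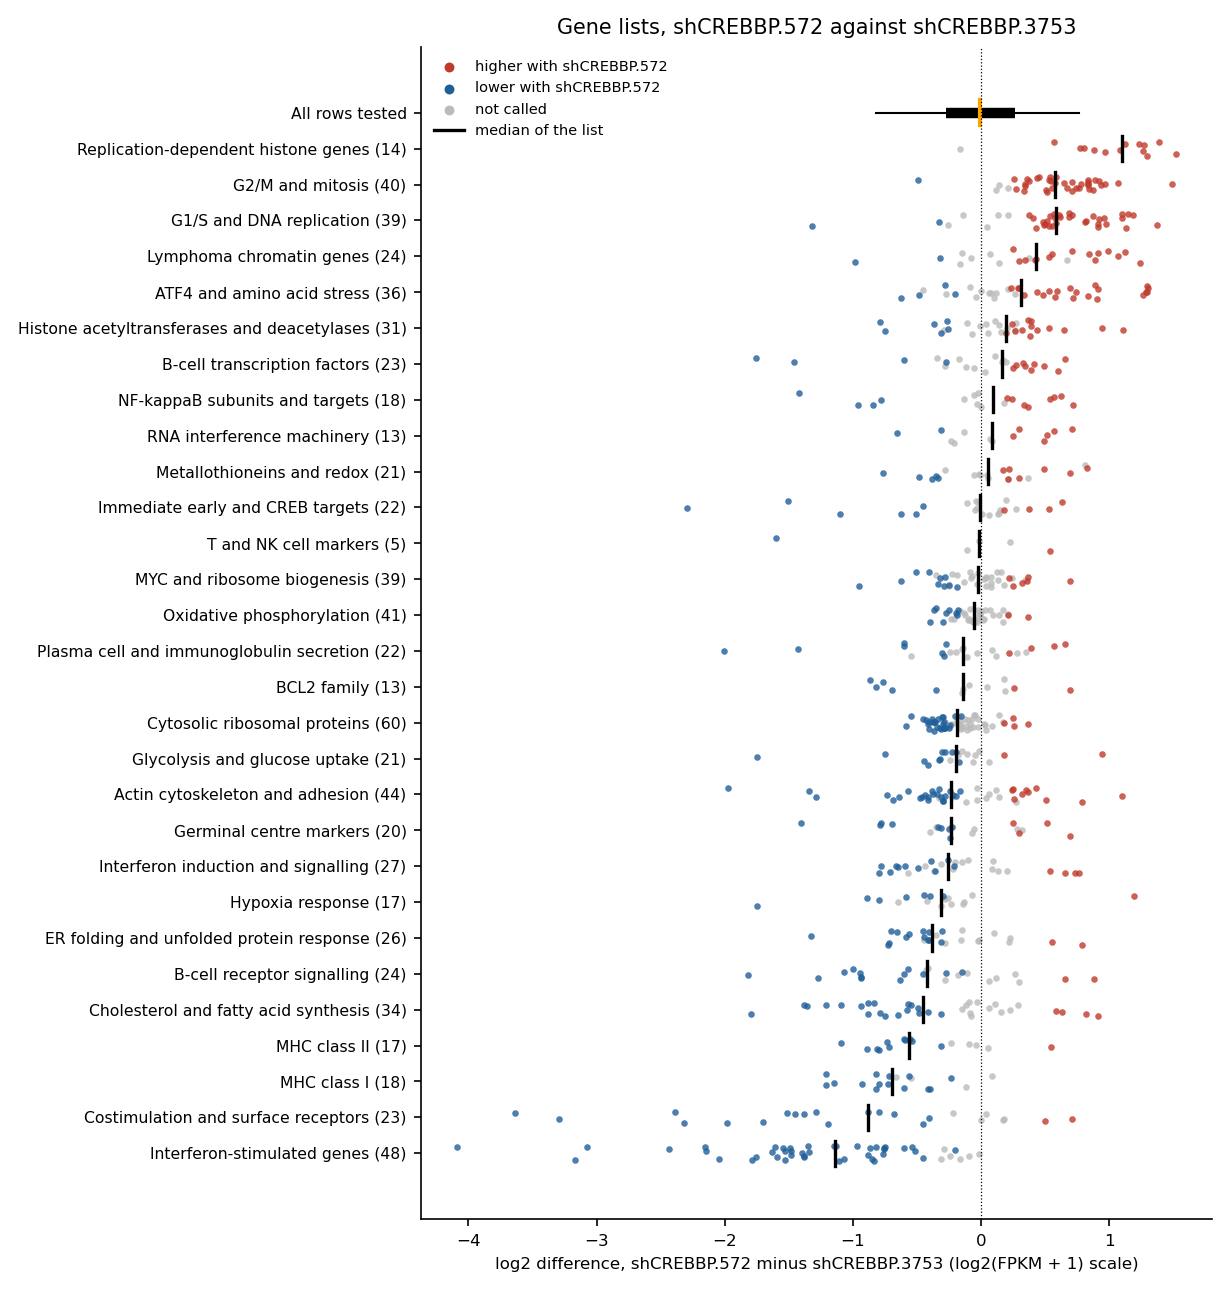
Log2 difference (shCREBBP.572 minus shCREBBP.3753, horizontal axis) of each tested row of 29 gene lists, with the number of rows in parentheses; red points were called higher with shCREBBP.572, blue points lower, grey points not called, and the black tick is the median. The top line shows all 11757 rows: the thick bar runs from the lower to the upper quartile, the thin line the middle 90%, the orange tick the median. Histone, replication and mitosis genes lay to the right, and interferon-stimulated genes, surface receptors and MHC class I genes to the left.

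The 15 largest falls with shCREBBP.572 under the naming rule included genes of several kinds. LGALS3BP, a secreted galectin-binding glycoprotein inducible by interferon (chromosome 17, 76967276 to 76976061), was at 1.24, 1.77 and 1.21 FPKM with shCREBBP.572, against 41.5, 38.9 and 38.7 FPKM with shCREBBP.3753. The shCREBBP.3753 mean was 28.2 times the shCREBBP.572 mean in this row. The log2 difference was -4.09 ± 0.11 (SE; limma adjusted p = 2.83e-05), the largest among all rows that met the naming rule. SLC2A5, the fructose transporter GLUT5 (chromosome 1, 9097004 to 9129887), was at 2.89, 2.29 and 3.88 FPKM with shCREBBP.572, against 46.7, 49.5 and 45.6 FPKM with shCREBBP.3753 (-3.60 ± 0.15, adjusted p = 7.08e-05). FCRLA, an intracellular Fc receptor-like protein of B cells (chromosome 1, 161676762 to 161684319), was at 6.06, 5.67 and 4.83 FPKM with shCREBBP.572, against 59.2, 65.1 and 64.3 FPKM with shCREBBP.3753 (-3.30 ± 0.09, adjusted p = 2.83e-05). MS4A1, the B-cell antigen CD20 and the target of rituximab (chromosome 11, 60223282 to 60238225), was under 1 FPKM in each shCREBBP.572 library. Its values were 0.801, 0.591 and 0.854 FPKM with shCREBBP.572, against 7.97, 7.72 and 8.66 FPKM with shCREBBP.3753 (-2.38 ± 0.11, adjusted p = 1e-04). VPREB1, part of the surrogate light chain of precursor B cells, was at 1.43, 0.749 and 0.565 FPKM with shCREBBP.572, against 8.55, 7.35 and 6.95 FPKM with shCREBBP.3753 (-2.19, adjusted p = 0.000553). LY86, which pairs with the Toll-like receptor RP105 on B cells, was at 2.12, 0.772 and 1.94 FPKM with shCREBBP.572, against 12.2, 13.8 and 15.5 FPKM with shCREBBP.3753 (-2.54, adjusted p = 0.000702). None of these 6 genes had overlapping groups, as the naming rule requires.

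RGS1 and RGS2 end signalling by G proteins. RGS1 was at 1.33, 0.899 and 2.94 FPKM with shCREBBP.572, against 12.8, 11.9 and 13 FPKM with shCREBBP.3753, and RGS2 at 3.52, 3.2 and 4.56 FPKM with shCREBBP.572, against 21.8, 21.3 and 23.6 FPKM with shCREBBP.3753, with log2 differences of -2.39 and -2.30 (limma adjusted p = 0.00129 and 0.000149). TWF1, twinfilin, which binds actin monomers, was at 7.47, 7.5 and 8.44 FPKM with shCREBBP.572, against 48.3, 47.8 and 53.5 FPKM with shCREBBP.3753 (-2.53 ± 0.07, adjusted p = 2.83e-05). RCSD1, which binds the actin capping protein, was at 52, 47.7 and 55.1 FPKM with shCREBBP.572, against 243, 239 and 224 FPKM with shCREBBP.3753 (-2.17 ± 0.06, adjusted p = 3.01e-05). Both actin-binding genes were lower in every shCREBBP.572 library, with ratios of means (shCREBBP.3753 over shCREBBP.572) of 6.39 for TWF1 and 4.56 for RCSD1. SELT, a selenoprotein of the endoplasmic reticulum, completed the group of non-interferon genes, with a ratio of 4.93 and a difference of -2.19.

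The largest rises were smaller. GLRB, the beta subunit of the glycine receptor (chromosome 4, 157997277 to 158093242), was at 5.9, 5.58 and 6.32 FPKM with shCREBBP.572, against 0.225, 0.219 and 0.284 FPKM with shCREBBP.3753. It was thus well under 1 FPKM in every shCREBBP.3753 library, with a log2 difference of 2.48 ± 0.10 (SE; limma adjusted p = 7.88e-05). BTBD2, a BTB domain protein, was at 40.3, 35.5 and 35.2 FPKM with shCREBBP.572, against 9.27, 8.84 and 7.31 FPKM with shCREBBP.3753 (2.01 ± 0.10, adjusted p = 0.00014). ESR1, the oestrogen receptor alpha, was at 23.7, 25.7 and 23.2 FPKM with shCREBBP.572, against 7.25, 8.23 and 8.01 FPKM with shCREBBP.3753 (1.51 ± 0.07, adjusted p = 0.00012). TOX2, a high mobility group factor, was at 15.4, 15.9 and 13.3 FPKM with shCREBBP.572, against 4.59, 3.19 and 2.56 FPKM with shCREBBP.3753 (1.86, adjusted p = 0.00077). In these 4 rows the lowest shCREBBP.572 value exceeded the highest shCREBBP.3753 value by a wide margin. LIPI, RELN, DIP2C, FKSG29 and C16orf59 rose by 1.35 to 1.75, and none of them passed 4.81 FPKM in any shCREBBP.3753 library. WDR90, a centriole protein, stood at 21, 19.5 and 17.6 FPKM with shCREBBP.572, against 6.59, 6.2 and 7.7 FPKM with shCREBBP.3753 (1.38, adjusted p = 0.000362). The remaining 5 of the 15 named rises, MKI67, MCM2, HIST1H4D, HIST1H1B and HIST1H2BM, stand in the cell cycle and histone lists and are given there.

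**Figure D2:**
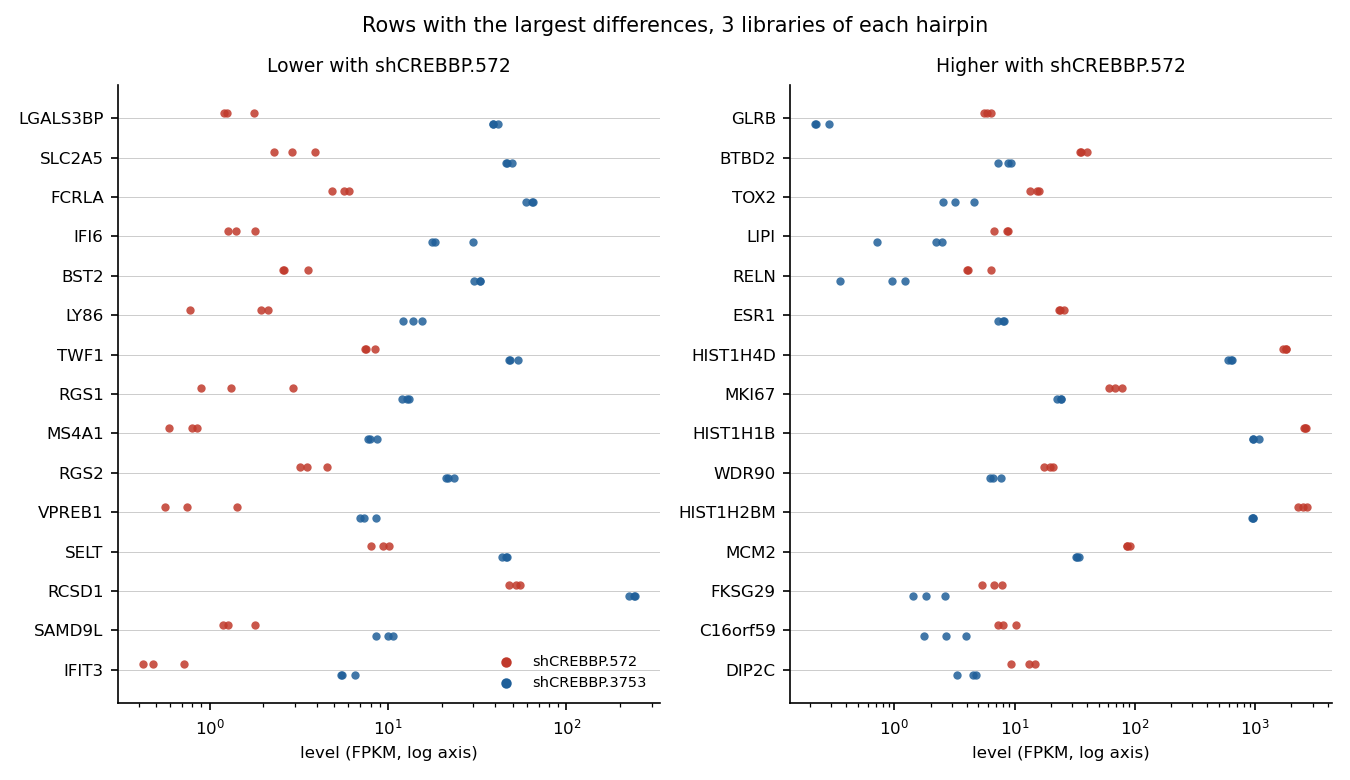
Levels in FPKM (log axis) of the 15 rows with the largest falls (left panel) and the 15 with the largest rises (right panel) under the naming rule, with 1 point per library, shCREBBP.572 in red above shCREBBP.3753 in blue. LGALS3BP, at 1.21 to 1.77 against 38.7 to 41.5 FPKM, and GLRB, at 5.58 to 6.32 against 0.219 to 0.284 FPKM, stood furthest apart.

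Interferon-stimulated genes were lower as a body. Of 65 symbols listed, 64 were in the table and 48 rows passed the filter; 42 of the 48 were lower with shCREBBP.572, none was higher and 6 were not called, where 21.3% of all rows were lower and 17.7% higher, with a median difference of -1.14 against -0.012 over all rows. In 8 of the 48 rows the mean was under 1 FPKM in at least 1 of the 2 hairpin groups. Of the 40 rows at 1 FPKM or more in both groups, 34 were lower and none higher. Leaving out any library left 38 to 42 rows lower, and the median after correction for GC content and length was -1.16.

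Among the antiviral effectors, IFI6 was at 1.4, 1.27 and 1.8 FPKM with shCREBBP.572, against 17.6, 30.03 and 18.3 FPKM with shCREBBP.3753 (-3.17 ± 0.22 SE, limma adjusted p = 0.000294). BST2, tetherin, which holds budding virus particles at the cell surface, was at 2.6, 2.59 and 3.58 FPKM with shCREBBP.572, against 32.8, 32.6 and 30.2 FPKM with shCREBBP.3753 (-3.08 ± 0.11, adjusted p = 6.03e-05). IFIT3, which acts with other IFIT proteins on foreign RNA, was at 0.481, 0.714 and 0.423 FPKM with shCREBBP.572, against 5.55, 5.42 and 6.5 FPKM with shCREBBP.3753 (-2.15 ± 0.13, adjusted p = 0.000201). SAMD9L, an inducible restriction factor, was at 1.26, 1.2 and 1.79 FPKM with shCREBBP.572, against 8.52, 10.00 and 10.7 FPKM with shCREBBP.3753 (-2.15 ± 0.14, adjusted p = 0.000244). Groups were separate in each of these rows, and the ratio of means (shCREBBP.3753 over shCREBBP.572) was 14.7 for IFI6, 10.9 for BST2, 10.8 for IFIT3 and 6.87 for SAMD9L. Other members, chosen after their values were seen, give the steps of the pathway. The RNA sensor IFIH1 was at 3.64, 3.58 and 4.39 FPKM with shCREBBP.572, against 14.2, 12.5 and 15.7 FPKM with shCREBBP.3753 (-1.63). The sensor DDX58 was at 3.01 to 3.35 FPKM with shCREBBP.572 and at 5.07 to 6.73 FPKM with shCREBBP.3753 (-0.76). Of the transcription factors downstream of the receptor, STAT2 was at 7.33 to 7.63 FPKM with shCREBBP.572 and at 12.6 to 16.3 FPKM with shCREBBP.3753 (-0.87). IRF9, whose row holds RNF31 as well, was not called (-0.16, adjusted p = 0.22), and nor was IRF7 (-0.02, adjusted p = 0.96). ISG15, the ubiquitin-like modifier, was at 11.4, 8.81 and 7.22 FPKM with shCREBBP.572, against 21.1, 22.3 and 20.1 FPKM with shCREBBP.3753 (-1.15). OAS1, which makes the second messenger of RNase L, was at 2.23 to 4.11 FPKM with shCREBBP.572 and at 9.0 to 14.6 FPKM with shCREBBP.3753 (-1.61). IFI44 was listed at 0.0671, 0 and 0 FPKM with shCREBBP.572, against 3.98, 4.27 and 5.45 FPKM with shCREBBP.3753; given its zeros no fold is stated.

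**Figure D3:**
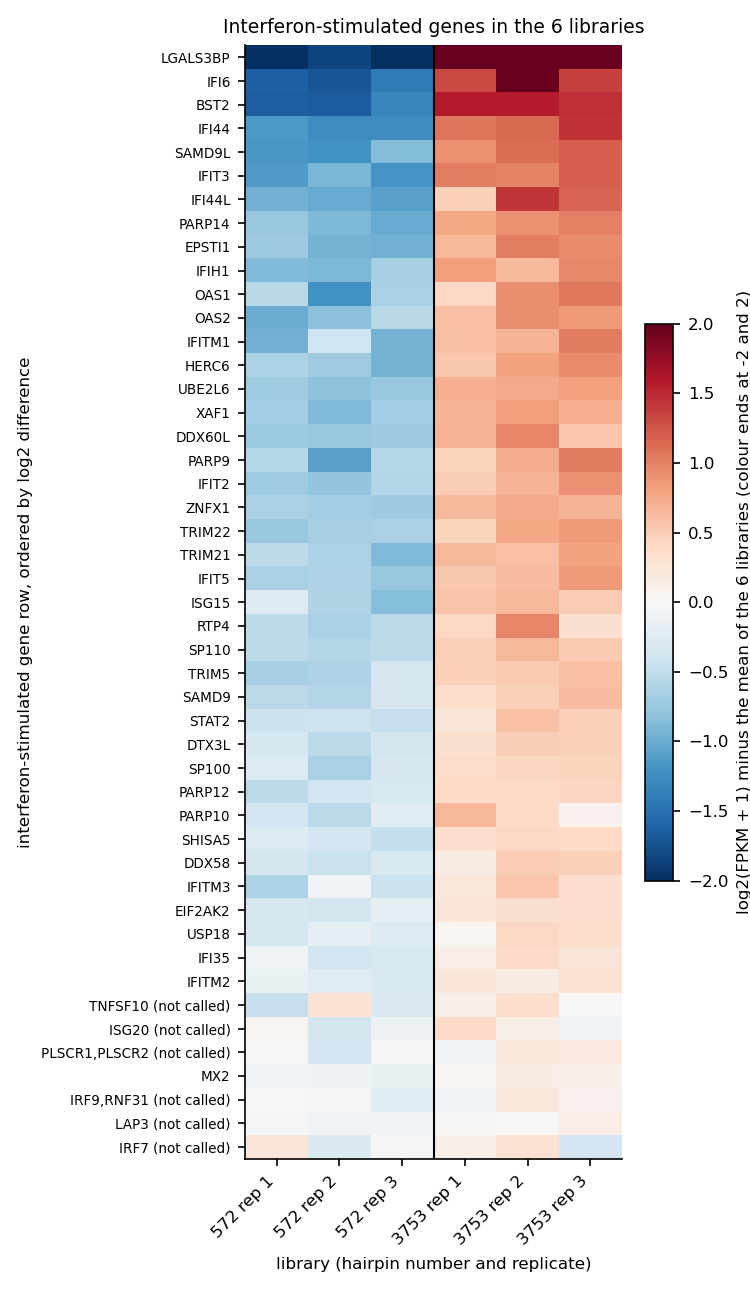
Heat map of 47 of the 48 interferon-stimulated rows (vertical, ordered by log2 difference) in the 6 libraries (horizontal, shCREBBP.572 left of the black line, shCREBBP.3753 right of it); colour is log2(FPKM + 1) minus the mean of the 6 libraries. The 41 called rows shown are lower in the shCREBBP.572 libraries, and the 6 rows not called are marked.

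The genes that induce and transmit interferon signals moved less. Of 27 rows 4 were higher and 11 lower (median -0.26). Without shCREBBP.3753 replicate 1, 6 were lower. The receptor subunit IFNAR1 was at 6.52, 5.75 and 7.11 FPKM with shCREBBP.572, against 12.1, 11.7 and 12 FPKM with shCREBBP.3753 (-0.80 ± 0.09 SE, limma adjusted p = 0.00117). The receptor kinase JAK1 was at 27.8, 25 and 29.1 FPKM with shCREBBP.572, against 44, 46.1 and 45.7 FPKM with shCREBBP.3753 (-0.71 ± 0.06, adjusted p = 0.000677). The factor IRF1 was at 5.99, 5.81 and 5.71 FPKM with shCREBBP.572, against 11.3, 11.3 and 9.66 FPKM with shCREBBP.3753 (-0.78 ± 0.08, adjusted p = 0.00117). Each of these 3 fell with shCREBBP.572 without overlap. MYD88, an adaptor of Toll-like receptors, went the other way, at 16.4, 15.6 and 14.5 FPKM with shCREBBP.572, against 10.1, 10.1 and 6.91 FPKM with shCREBBP.3753 (0.73 ± 0.15, adjusted p = 0.0105).

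The promoters of several of these genes are shown to let the motif be seen beside the values. Each line gives the 150 bases before the transcription start, read from RefSeq on GRCh38.p14 on the strand of the gene. Matches that lie wholly within these bases are in capitals. A match cut by the far end of the stretch, as in IFI6 and IFIT3, is not marked. The motif searched was GAAA, any 2 bases and GAAA again, the core of the interferon-stimulated response element, or its reverse complement, TTTC, any 2 bases and TTTC. Matches may overlap, as in BST2. The motif was chosen with the results known.
LGALS3BP promoter (chr17:78979924-78980073, minus strand): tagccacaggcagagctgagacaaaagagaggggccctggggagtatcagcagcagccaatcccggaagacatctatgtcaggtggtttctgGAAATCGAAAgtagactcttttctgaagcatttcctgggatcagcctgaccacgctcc
BST2 promoter (chr19:17405631-17405780, minus strand): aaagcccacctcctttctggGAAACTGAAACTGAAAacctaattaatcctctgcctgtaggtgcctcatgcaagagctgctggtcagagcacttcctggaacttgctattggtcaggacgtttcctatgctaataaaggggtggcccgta
IFI6 promoter (chr1:27672193-27672342, minus strand): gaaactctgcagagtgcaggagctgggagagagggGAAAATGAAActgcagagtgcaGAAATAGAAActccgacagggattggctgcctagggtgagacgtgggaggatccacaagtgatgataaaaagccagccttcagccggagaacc
IFIT3 promoter (chr10:89327847-89327996, plus strand): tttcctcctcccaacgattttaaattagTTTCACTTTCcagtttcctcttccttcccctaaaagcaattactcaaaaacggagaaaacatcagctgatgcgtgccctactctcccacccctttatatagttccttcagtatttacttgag

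In windows from 250 bases before to 50 after the start, the motif was in 25 of the 38 interferon-stimulated rows for which a promoter was matched (65.8%), and in 3.57% of 35116 promoters in all. It was in 21 of the 33 matched rows that were lower. Matches are letters in a window and not measured sites of binding. Among called rows whose window held no match were OAS1, STAT2 and SAMD9L. ISG20, LAP3, TNFSF10 and the row of PLSCR1 with PLSCR2 were not called, and each of their windows held a match. The list gathers genes known to respond to interferon, so the share with the motif describes the list and not these libraries.

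Antigen presentation was lower on both arms. For MHC class I, which shows peptides of the cell's own proteins to CD8 T cells, 14 of 18 rows were lower and none higher (median -0.69). The row that holds HLA-B with HLA-C was at 206, 196 and 191 FPKM with shCREBBP.572, against 453, 446 and 419 FPKM with shCREBBP.3753 (-1.15 ± 0.05 SE, limma adjusted p = 8.03e-05). The row of HLA-E with HLA-L was at 26.2, 24.4 and 25.3 FPKM with shCREBBP.572, against 56.2, 65.4 and 58.4 FPKM with shCREBBP.3753 (-1.21 ± 0.07, adjusted p = 0.000176). TAP2, which carries peptides into the endoplasmic reticulum, was at 7.8, 7.0 and 5.7 FPKM with shCREBBP.572, against 16.2, 17.5 and 17.3 FPKM with shCREBBP.3753 (-1.21 ± 0.11, adjusted p = 0.000709). PSMB9, a subunit of the immunoproteasome, was at 31.2, 27.8 and 30.1 FPKM with shCREBBP.572, against 57.8, 56.5 and 58.4 FPKM with shCREBBP.3753 (-0.93 ± 0.05, adjusted p = 0.000191). ERAP2, which trims peptides, was at 11.4, 12.6 and 11.3 FPKM with shCREBBP.572, against 19.2, 23.1 and 22.7 FPKM with shCREBBP.3753 (-0.82 ± 0.09, adjusted p = 0.00117). All shCREBBP.572 libraries lay below all shCREBBP.3753 libraries in each. NLRC5, the activator of this class, picked after its value was seen, was not called (-0.12, adjusted p = 0.474).

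For MHC class II, which shows captured proteins to CD4 T cells, 12 of 17 rows were lower and 1 was higher (median -0.56). HLA-DMB and HLA-DMA together catalyse peptide loading. HLA-DMB was at 8.64, 10.5 and 10.5 FPKM with shCREBBP.572, against 21.9, 20.2 and 24.4 FPKM with shCREBBP.3753 (-1.09 ± 0.10 SE, limma adjusted p = 0.000776). HLA-DMA was at 28, 25.8 and 27 FPKM with shCREBBP.572, against 43, 50.2 and 50.8 FPKM with shCREBBP.3753 (-0.81 ± 0.08, adjusted p = 0.000759). CTSS and IFI30 prepare the peptides. CTSS was at 8.51, 8.65 and 9.02 FPKM with shCREBBP.572, against 16.7, 17.2 and 17.1 FPKM with shCREBBP.3753 (-0.89 ± 0.06, adjusted p = 0.000242). IFI30 was at 22.4, 23.4 and 18.6 FPKM with shCREBBP.572, against 39.1, 36.6 and 38.1 FPKM with shCREBBP.3753 (-0.80 ± 0.09, adjusted p = 0.00137). Classical chains fell less: HLA-DRA was at 219, 199 and 239 FPKM with shCREBBP.572, against 316, 309.8 and 338 FPKM with shCREBBP.3753 (-0.55 ± 0.07, adjusted p = 0.00246). HLA-DQA1 was at 14.6, 16.2 and 13.5 FPKM with shCREBBP.572, against 24.7, 24.1 and 27.2 FPKM with shCREBBP.3753 (-0.74 ± 0.08, adjusted p = 0.00142), while HLA-DPA1 (-0.04) and HLA-DPB1 (-0.10), chosen after their values were seen, were not called. CIITA, the activator of the class, was at 10.3, 13.4 and 9.88 FPKM with shCREBBP.572, against 17.7, 17.5 and 15.5 FPKM with shCREBBP.3753 (-0.56 ± 0.12, adjusted p = 0.0139), a call that ended without shCREBBP.3753 replicate 1 (adjusted p = 0.0513) or replicate 2 (0.052). The member that rose was RFXAP, of the promoter complex, at 0.54. Reads of these polymorphic and similar genes may be divided between rows.

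The machinery of the B-cell receptor fell in 13 of 24 rows and rose in 2 (median -0.42; 4 higher without shCREBBP.572 replicate 3). Its signalling chains CD79A and CD79B were 2.12 and 2.0 times as high with shCREBBP.3753 as with shCREBBP.572. CD79A was at 59, 54.4 and 57.2 FPKM with shCREBBP.572, against 124, 126 and 112 FPKM with shCREBBP.3753 (-1.07 ± 0.06 SE, limma adjusted p = 0.000186). CD79B was at 76.5, 78.7 and 87.1 FPKM with shCREBBP.572, against 164, 164 and 157 FPKM with shCREBBP.3753 (-1.0 ± 0.06, adjusted p = 0.000191). Further down, the kinase LYN was at 6.53, 7.23 and 6.47 FPKM with shCREBBP.572, against 18.2, 17.5 and 17.2 FPKM with shCREBBP.3753 (-1.27 ± 0.07, adjusted p = 0.000161). The kinase BTK was at 26, 27.5 and 31.3 FPKM with shCREBBP.572, against 51.5, 57.6 and 56.5 FPKM with shCREBBP.3753 (-0.94 ± 0.08, adjusted p = 0.000577). The adaptor BLNK was at 9.08, 9.94 and 10.3 FPKM with shCREBBP.572, against 38.4, 33.3 and 39.1 FPKM with shCREBBP.3753 (-1.81 ± 0.08, adjusted p = 0.000103). BLNK fell most of the list. The kinase SYK, picked after its value was seen, differed by -0.15 (limma adjusted p = 0.0241).

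Surface receptors and costimulatory molecules fell in 16 of 23 rows and rose in 2 (median -0.88; 1 higher without any 1 shCREBBP.572 library or shCREBBP.3753 replicate 2); of the 18 rows at 1 FPKM or more in both groups, 12 were lower, and at a mean of at least 5 FPKM, which tests fewer rows, 6. Of the SLAM family, CD48 was at 18.7, 19.2 and 23.5 FPKM with shCREBBP.572, against 87.3, 65.5 and 101 FPKM with shCREBBP.3753 (-1.98 ± 0.17 SE, limma adjusted p = 0.00056). LY9 was at 1.6, 1.39 and 2.21 FPKM with shCREBBP.572, against 6.63, 5.54 and 8.29 FPKM with shCREBBP.3753 (-1.51 ± 0.18, adjusted p = 0.00151). SLAMF7, the target of elotuzumab, which stands in the plasma cell list, was at 42.5, 41.6 and 46.7 FPKM with shCREBBP.572, against 183, 177 and 175 FPKM with shCREBBP.3753 (-2.01 ± 0.05, adjusted p = 2.83e-05). The ratio of means (shCREBBP.3753 over shCREBBP.572) was 4.13, 3.93 and 4.08 for the 3 family members in that order, and none overlapped. CD72, an inhibitory coreceptor of B cells, was at 14.8, 16.3 and 14.4 FPKM with shCREBBP.572, against 51.7, 50.1 and 52.6 FPKM with shCREBBP.3753 (-1.70 ± 0.06, adjusted p = 5.19e-05). CD37 and CD52, chosen after their values were seen, were listed at 0 in some library: CD52 was at 0.355, 0 and 0.769 FPKM with shCREBBP.572, against 17.3, 12 and 18.2 FPKM with shCREBBP.3753, and CD37 at 0.122, 0 and 0 FPKM with shCREBBP.572, against 4.6, 4.6 and 3.41 FPKM with shCREBBP.3753. An exact 0 in this unit can be a failed estimate, and no fold is given for them.

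Transcription factors of the B lineage did not move together: 9 of 23 rows were higher and 4 lower (median 0.16). Over all rows 17.7% were higher and 21.3% lower. The ETS factors SPI1 and SPIB had the large falls. SPI1 was at 5.37, 5.31 and 5.48 FPKM with shCREBBP.572, against 22.9, 19.6 and 19.3 FPKM with shCREBBP.3753 (-1.76 ± 0.08 SE, limma adjusted p = 0.000111). SPIB was at 4.67, 4.36 and 5.08 FPKM with shCREBBP.572, against 16.6, 15.3 and 12.4 FPKM with shCREBBP.3753 (-1.46 ± 0.12, adjusted p = 0.000482). EBF1, which sets the B lineage, was higher, at 19.9, 19.7 and 22.5 FPKM with shCREBBP.572, against 13.3, 14.5 and 12.2 FPKM with shCREBBP.3753 (0.60 ± 0.08, adjusted p = 0.003), as was PRDM1, the driver of plasma cell fate, at 3.64, 2.93 and 2.78 FPKM with shCREBBP.572, against 1.78, 1.59 and 1.44 FPKM with shCREBBP.3753 (0.66 ± 0.13, adjusted p = 0.00895). IKZF3 was at 3.29, 3.6 and 3.26 FPKM with shCREBBP.572, against 5.67, 5.93 and 5.38 FPKM with shCREBBP.3753 (-0.60 ± 0.09, adjusted p = 0.003). Germinal centre markers fell in 9 of 20 rows and rose in 4 (median -0.24; 4 lower without shCREBBP.3753 replicate 2 and 5 without its replicate 1). The share that rose was near the 17.7% of all rows. Only 2 germinal centre rows were higher without shCREBBP.572 replicate 1, without shCREBBP.3753 replicate 2, at a mean of at least 5 FPKM or after the GC and length correction. STAP1, an adaptor of the receptor pathway, was at 5.35, 3.44 and 3.12 FPKM with shCREBBP.572, against 12.2, 11.5 and 12 FPKM with shCREBBP.3753 (-1.40 ± 0.17, adjusted p = 0.0017). MME, the antigen CD10, was at 22.1, 22.5 and 22 FPKM with shCREBBP.572, against 35.1, 38.2 and 43.3 FPKM with shCREBBP.3753 (-0.78 ± 0.08, adjusted p = 0.000985). CXCR4, which holds cells in the dark zone, was at 173, 169 and 178 FPKM with shCREBBP.572, against 286, 273 and 283 FPKM with shCREBBP.3753 (-0.69 ± 0.04, adjusted p = 0.000176). MYBL1, a factor of proliferating germinal centre cells, was at 3.52, 3.1 and 3.82 FPKM with shCREBBP.572, against 1.46, 1.6 and 2.29 FPKM with shCREBBP.3753 (0.69 ± 0.15, adjusted p = 0.0131). The lower sum of B-cell markers given above was made up mostly of CD79A and CD79B, which are themselves among the falls. It is therefore no separate measure, and PAX5, also in that sum, was not called. A change in cell content was not tested.

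Cell cycle genes were higher with shCREBBP.572 across phases. Of 39 G1/S and DNA replication rows 32 were higher and 2 lower (median 0.58), and of 40 G2/M and mitosis rows 36 were higher and 1 lower (median 0.58), against 17.7% of all rows higher. Leaving out any library left 29 to 32 and 29 to 37 rows higher. MCM2, a subunit of the replicative helicase (chromosome 3, 127317200 to 127341294), was at 85.8, 90.6 and 85.6 FPKM with shCREBBP.572, against 32.2, 32.8 and 34.5 FPKM with shCREBBP.3753 (1.37 ± 0.05 SE, limma adjusted p = 4.98e-05). CDT1, which loads that helicase, was at 22.5, 25.2 and 19.5 FPKM with shCREBBP.572, against 9.16, 10.7 and 9.2 FPKM with shCREBBP.3753 (1.13 ± 0.11, adjusted p = 0.000876). RFC3, of the clamp loader, was at 183, 179 and 209 FPKM with shCREBBP.572, against 80.2, 81.2 and 94.6 FPKM with shCREBBP.3753 (1.15 ± 0.09, adjusted p = 0.000417). E2F7, a repressor of the E2F family, was at 15.8, 15.4 and 17.6 FPKM with shCREBBP.572, against 5.75, 7.12 and 6.96 FPKM with shCREBBP.3753 (1.19 ± 0.10, adjusted p = 0.000521). These 4 replication genes were each over 2 times higher in the shCREBBP.572 mean, with ratios of means (shCREBBP.572 over shCREBBP.3753) of 2.63, 2.31, 2.23 and 2.46 in that order.

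MKI67, the proliferation antigen Ki-67 (chromosome 10, 129892573 to 129924623), was at 78.4, 68.4 and 60.6 FPKM with shCREBBP.572, against 24.3, 24.5 and 22.6 FPKM with shCREBBP.3753 (1.49 ± 0.10 SE, limma adjusted p = 0.000257). KIF11, a kinesin of the bipolar spindle, was at 58.1, 56.2 and 60.1 FPKM with shCREBBP.572, against 25.7, 26.1 and 29.8 FPKM with shCREBBP.3753 (1.07 ± 0.07, adjusted p = 0.000242). AURKB, a mitotic kinase, was at 71.9, 68.8 and 63 FPKM with shCREBBP.572, against 33.9, 34.4 and 38.2 FPKM with shCREBBP.3753 (0.92 ± 0.07, adjusted p = 0.000417). BUB1, of the spindle checkpoint, was at 85.1, 82.2 and 93 FPKM with shCREBBP.572, against 40.4, 45.2 and 46.4 FPKM with shCREBBP.3753 (0.96 ± 0.07, adjusted p = 0.000387). CDC25B, a phosphatase that activates CDK1, was at 28.7, 30.04 and 23.2 FPKM with shCREBBP.572, against 14.1, 13.5 and 13.6 FPKM with shCREBBP.3753 (0.94 ± 0.10, adjusted p = 0.00116). No mitotic gene of these 5, picked as called members with the largest differences, had overlapping groups. The 3 exceptions that were lower were CDK6, at 1.87, 1.67 and 1.65 FPKM with shCREBBP.572, against 5.13, 6.12 and 6.26 FPKM with shCREBBP.3753 (-1.32 ± 0.11, adjusted p = 0.000482), and, chosen after their values were seen, RRM2 (-0.33) and AURKA (-0.49).

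Histone genes that are transcribed with DNA replication rose in 13 of 14 rows and fell in none (median 1.10). Each left-out library kept that count. HIST1H1B was at 2652, 2615 and 2562 FPKM with shCREBBP.572, against 958, 968 and 1066 FPKM with shCREBBP.3753 (1.39 ± 0.06 SE, limma adjusted p = 7.29e-05). HIST1H4D was at 1805, 1792 and 1702 FPKM with shCREBBP.572, against 589, 646 and 631 FPKM with shCREBBP.3753 (1.5 ± 0.05, adjusted p = 5.26e-05). HIST1H2BM was at 2501, 2716 and 2252 FPKM with shCREBBP.572, against 938, 961 and 964 FPKM with shCREBBP.3753 (1.38 ± 0.07, adjusted p = 0.000165). The row of HIST1H2AB and HIST1H3B was at 2534, 2612 and 2365 FPKM with shCREBBP.572, against 884, 899 and 833 FPKM with shCREBBP.3753 (1.52 ± 0.06, adjusted p = 6.47e-05). The ratio of means (shCREBBP.572 over shCREBBP.3753) was 2.62, 2.84, 2.61 and 2.87 in that order, and no libraries overlapped. Histone copies are near identical, and reads may be shared among rows. The assembled loci of HIST1H4D (chromosome 6, 26156439 to 26275198) and HIST1H2BM (chromosome 6, 27780317 to 27808042) are wide. Their levels may therefore not be those of a single histone gene. HIST1H1D, picked after its value was seen, was the row not called (-0.17, adjusted p = 0.0821).

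Promoters of cell cycle genes are shown in the same way: 150 bases before the start, RefSeq, GRCh38.p14, strand of the gene. For the replication genes the capitals mark TTTNNCGC or its reverse complement GCGNNAAA, a core of E2F sites, and the matches in MCM6 overlap. A further match in MCM6, cut by the far end of the stretch, is not marked. Every promoter shown holds a match. MCM6 was called higher, and its level is not given here. MCM2 had matches only after the start.
RFC3 promoter (chr13:33817999-33818148, plus strand): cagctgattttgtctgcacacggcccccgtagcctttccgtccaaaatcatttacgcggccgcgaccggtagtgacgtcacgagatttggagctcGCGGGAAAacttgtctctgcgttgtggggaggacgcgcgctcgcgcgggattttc
MCM6 promoter (chr2:135876444-135876593, minus strand): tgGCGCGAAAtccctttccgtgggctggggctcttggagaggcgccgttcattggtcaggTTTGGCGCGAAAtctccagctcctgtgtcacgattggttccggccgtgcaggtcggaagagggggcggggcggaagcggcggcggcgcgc
For the mitotic genes the capitals mark TTTGAA or its reverse complement TTCAAA, the cell cycle genes homology region.
MKI67 promoter (chr10:128126424-128126573, minus strand): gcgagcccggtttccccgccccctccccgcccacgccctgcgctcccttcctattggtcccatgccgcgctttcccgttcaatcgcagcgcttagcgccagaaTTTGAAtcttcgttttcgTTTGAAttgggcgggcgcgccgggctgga
KIF11 promoter (chr10:92592980-92593129, plus strand): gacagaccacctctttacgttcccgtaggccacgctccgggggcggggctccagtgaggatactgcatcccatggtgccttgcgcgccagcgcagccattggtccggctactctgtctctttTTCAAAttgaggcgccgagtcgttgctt

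The E2F core was in 17 of 33 matched replication rows (51.5%) and in 6.89% of all 35116 promoters of the same length. The short TTTGAA motif was in 24 of 34 matched mitotic rows (70.6%) and in 15.2% of all promoters. It was in the windows of 21 of the 31 matched mitotic rows that were called, and the E2F core in 15 of the 30 matched replication rows that were called. CDC25B, AURKB and BUB1 had no TTTGAA in their windows, and E2F7 no E2F core. Of genes not called, TOP2A, PRC1 and HMMR held TTTGAA, and CDC25A and GINS3 the E2F core. These shares too describe the lists and not the libraries.

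CDKN1A, the cell cycle inhibitor p21 (chromosome 6, 36644237 to 36655116), was at 15.5, 15.1 and 12.6 FPKM with shCREBBP.572, against 45.5, 46.6 and 51 FPKM with shCREBBP.3753 (-1.66 ± 0.09 SE, limma adjusted p = 0.000166). The death receptor FAS was at 0.900, 1.14 and 0.566 FPKM with shCREBBP.572, against 2.91, 3.04 and 3.68 FPKM with shCREBBP.3753 (-1.18 ± 0.16, adjusted p = 0.00246). TRIAP1, an inhibitor of apoptosis in mitochondria, was at 13.2, 12.7 and 14.5 FPKM with shCREBBP.572, against 24.8, 24.9 and 26.5 FPKM with shCREBBP.3753 (-0.87 ± 0.07, adjusted p = 0.000392). These 3 genes were lower with shCREBBP.572 in each library. MDM2, a ubiquitin ligase, chosen after its value was seen, was at 31.4, 31.3 and 32.4 FPKM with shCREBBP.572, against 47.6, 47.2 and 43 FPKM with shCREBBP.3753 (-0.52). In the BCL2 family 5 of 13 rows were lower and 2 higher (median -0.14), where 21.3% of all rows were lower and 17.7% higher. Only killers of the family are named here, so they do not describe the family as a whole. HRK, BIK and BAK1 fell by 0.87, 0.82 and 0.77 (limma adjusted p = 0.00407, 0.00223 and 0.00246). The row of BCL2L11, the killer BIM, with ACOXL was at 91.7, 79.1 and 87.9 FPKM with shCREBBP.572, against 56, 54.6 and 48.2 FPKM with shCREBBP.3753 (0.69 ± 0.08, adjusted p = 0.00151).

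Transcripts of most enzymes of cholesterol synthesis were lower. Of 18 enzymes in the order of the pathway 15 were lower, PMVK was higher, and CYP51A1 (0.29) and HSD17B7 (0.23) were not called; nor was the row of TM7SF2 with VPS51 (-0.03), which is not among the 18. In the list of cholesterol and fatty acid synthesis 19 of 34 rows were lower and 4 higher (median -0.45). HMGCS1, an early enzyme of the mevalonate steps, was at 14.8, 13 and 15 FPKM with shCREBBP.572, against 35.5, 30.6 and 36.9 FPKM with shCREBBP.3753 (-1.21 ± 0.09 SE, limma adjusted p = 0.000394). MVD, which ends the mevalonate steps, was at 7.7, 7.98 and 6.11 FPKM with shCREBBP.572, against 25, 14.9 and 21.8 FPKM with shCREBBP.3753 (-1.36 ± 0.20, adjusted p = 0.00337). IDI1, which isomerises the isoprene unit and whose name stands on another tested row too, was at 13.6, 13.2 and 10.9 FPKM with shCREBBP.572, against 45.3, 43 and 50.05 FPKM with shCREBBP.3753 (-1.79 ± 0.10, adjusted p = 0.000166). FDFT1, the squalene synthase, was at 24.6, 24 and 25.1 FPKM with shCREBBP.572, against 61.9, 62 and 73.2 FPKM with shCREBBP.3753 (-1.38 ± 0.07, adjusted p = 0.000165). MSMO1, a later demethylase, was at 21.7, 17.4 and 18.4 FPKM with shCREBBP.572, against 44, 39.9 and 41.8 FPKM with shCREBBP.3753 (-1.09 ± 0.09, adjusted p = 0.000482). In each of these 5 enzymes the groups were apart. Chosen after their values were seen, the 4 rows that rose were FASN, the fatty acid synthase (0.91), SREBF1, the regulator of fatty acid genes (0.82), PMVK (0.63) and FADS2 (0.58). SREBF2, the regulator of sterol genes, was not called (-0.09, adjusted p = 0.19). The core of the sterol regulatory element, TCACNCCAC or GTGGNGTGA, was in 1 of 27 matched windows (3.7%), that of SREBF2, in none of the 16 matched rows that were called, and in 1.13% of all promoters.

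**Figure D4:**
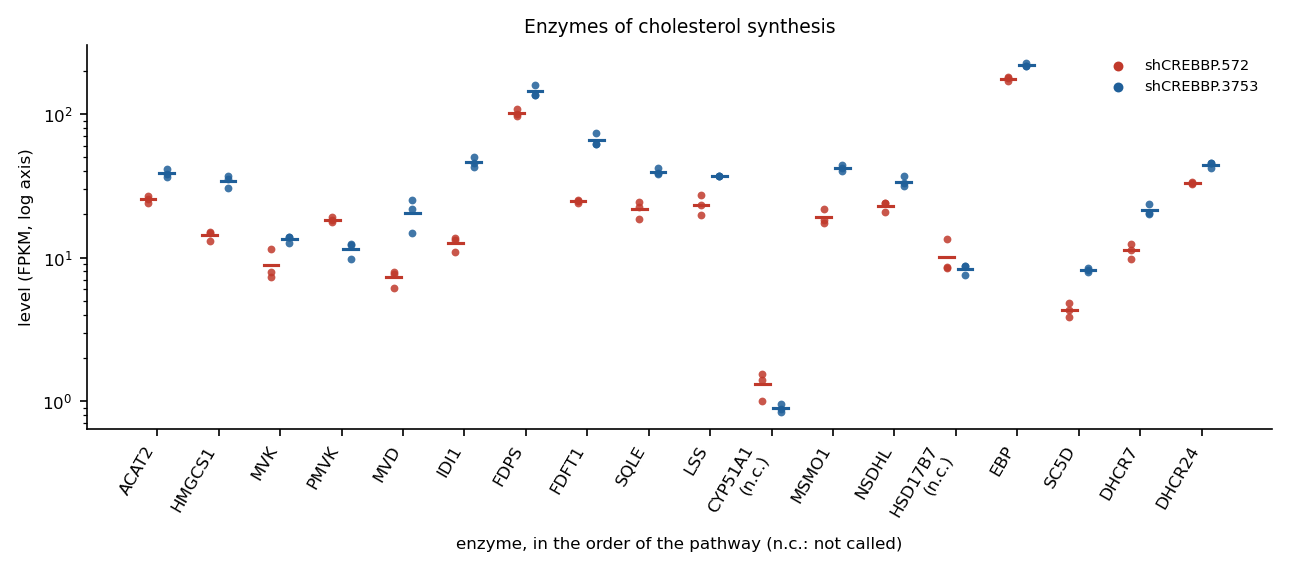
Levels in FPKM (log axis) of 18 enzymes of cholesterol synthesis in the order of the pathway, with 1 point per library and the mean as a bar, shCREBBP.572 in red left of shCREBBP.3753 in blue; n.c. marks rows not called. HMGCS1, at 13.0 to 15 against 30.6 to 36.9 FPKM, and MSMO1, at 17.4 to 21.7 against 39.9 to 44.0 FPKM, are among the falls, and PMVK is higher with shCREBBP.572.

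Genes of the ATF4 programme, which answers amino acid shortage, were higher in 21 of 36 rows and lower in 4 (median 0.31). PHGDH, the entry enzyme of serine synthesis, was at 135, 143 and 140.1 FPKM with shCREBBP.572, against 55.7, 54.5 and 57.5 FPKM with shCREBBP.3753 (1.30 ± 0.04 SE, limma adjusted p = 4.53e-05). GPT2, which makes alanine, was at 56, 54.4 and 53.7 FPKM with shCREBBP.572, against 22.7, 21.9 and 21.1 FPKM with shCREBBP.3753 (1.28 ± 0.05, adjusted p = 5.72e-05). The glycine transporter SLC6A9 was at 6.13, 8.65 and 8.97 FPKM with shCREBBP.572, against 2.26, 2.97 and 2.63 FPKM with shCREBBP.3753 (1.29 ± 0.16, adjusted p = 0.00184). The row of ATF5, a related factor, with MIR4751 was at 471, 483 and 495 FPKM with shCREBBP.572, against 230.2, 201 and 174 FPKM with shCREBBP.3753 (1.27 ± 0.10, adjusted p = 0.000435). The row of SLC7A11, the cystine transporter, with its antisense gene was at 12.1, 14.5 and 13.2 FPKM with shCREBBP.572, against 5.08, 4.64 and 4.71 FPKM with shCREBBP.3753 (1.29 ± 0.09, adjusted p = 0.000284). All 5 rows were over 2 times higher in the shCREBBP.572 mean. ATF4 itself, picked after its value was seen, was at 555, 534 and 579 FPKM with shCREBBP.572, against 306, 303 and 327 FPKM with shCREBBP.3753 (0.83), while the targets DDIT3 (0.12) and TRIB3 (0.07) were not called and DDIT4 was lower (-0.62). A core of the amino acid response element, TGATGNAA or TTNCATCA, was in 10 of 29 matched windows (34.5%), 7 of them among the 20 matched rows that were called, and in 3.62% of all promoters. Among rows not called, those of ATF3, IARS and NARS held it.

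Folding genes of the endoplasmic reticulum fell in 14 of 26 rows and rose in 2 (median -0.38). The lectin row of CANX with MAML1 was at 140.0, 138 and 151 FPKM with shCREBBP.572, against 228, 231 and 253 FPKM with shCREBBP.3753 (-0.73 ± 0.06 SE, limma adjusted p = 0.000478). PDIA3, its partner isomerase, was at 87.1, 84.1 and 91.6 FPKM with shCREBBP.572, against 142, 141 and 152 FPKM with shCREBBP.3753 (-0.72 ± 0.05, adjusted p = 0.000302). The row of HSP90B1 with MIR3652 was at 152, 139.5 and 155 FPKM with shCREBBP.572, against 240.4, 229 and 259.6 FPKM with shCREBBP.3753 (-0.70 ± 0.06, adjusted p = 0.000662). ERN1, the stress sensor IRE1, was higher, at 6.61, 7.41 and 6.38 FPKM with shCREBBP.572, against 3.31, 4.02 and 3.23 FPKM with shCREBBP.3753 (0.79 ± 0.11, adjusted p = 0.00254). Glycolysis rows were lower in 11 of 21 and higher in 2 (median -0.19; 6 lower with all 12 libraries in the fit). The largest changes were opposite. The regulator PFKFB4 was at 6.96, 4.48 and 5.78 FPKM with shCREBBP.572, against 25.7, 16.8 and 22.5 FPKM with shCREBBP.3753 (-1.75 ± 0.19, adjusted p = 0.00133). The liver-type phosphofructokinase PFKL was at 68.9, 69.3 and 61.6 FPKM with shCREBBP.572, against 37.6, 32.6 and 32.3 FPKM with shCREBBP.3753 (0.94 ± 0.08, adjusted p = 0.000531). Cytosolic ribosomal protein rows were lower in 27 of 60 and higher in 4 (median -0.19), with 16 lower and 1 higher without the filter, and 8 lower and none higher when all 12 libraries shared the fit. In oxidative phosphorylation 9 of 41 rows were lower and 2 higher (median -0.05), and after upper quartile scaling 4 were lower and 6 higher, so no direction is given.

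Chromatin genes mutated in lymphoma were higher in 15 of 24 rows and lower in 2 (median 0.43; 1 lower when replicate 1 or 2 of either hairpin was left out). WHSC1, a methyltransferase of histone H3 lysine 36, was at 73.6, 73.8 and 69.9 FPKM with shCREBBP.572, against 30.03, 28.6 and 31.6 FPKM with shCREBBP.3753 (1.24 ± 0.05 SE, limma adjusted p = 7.68e-05). SMARCA4 and ARID1A belong to the SWI/SNF remodeller. SMARCA4 was at 66.7, 60.9 and 58.7 FPKM with shCREBBP.572, against 33.5, 30.3 and 24.1 FPKM with shCREBBP.3753 (1.07 ± 0.12, adjusted p = 0.00149). ARID1A was at 23.9, 20.7 and 19.2 FPKM with shCREBBP.572, against 11.8, 11.1 and 8.02 FPKM with shCREBBP.3753 (0.99 ± 0.15, adjusted p = 0.00403). Picked after its value was seen, EZH2, the methyltransferase of Polycomb, was at 59.7, 60.6 and 60.6 FPKM with shCREBBP.572, against 31, 33.5 and 35.3 FPKM with shCREBBP.3753 (0.84), and all 3 of its libraries were above those of shCREBBP.3753. Of acetyltransferases, deacetylases and their partners 13 of 31 rows were higher and 6 lower (median 0.19; 7 higher without shCREBBP.3753 replicate 2, and 8 without shCREBBP.572 replicate 1 or 2). Besides EP300, the coactivator NCOA3 was at 16.6, 17.6 and 17.1 FPKM with shCREBBP.572, against 30.1, 28.5 and 29.8 FPKM with shCREBBP.3753 (-0.75 ± 0.05, adjusted p = 0.000272). The corepressor RCOR1 was at 5.09, 3.52 and 4.11 FPKM with shCREBBP.572, against 7.76, 8.15 and 8.06 FPKM with shCREBBP.3753 (-0.79 ± 0.12, adjusted p = 0.00418).

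Of the cytoskeleton and adhesion genes 24 of 44 rows were lower and 10 higher (median -0.23). ITGB1, an integrin chain, was at 19.6, 15.2 and 21.5 FPKM with shCREBBP.572, against 75.6, 72 and 80.4 FPKM with shCREBBP.3753 (-1.97 ± 0.12 SE, limma adjusted p = 0.000242). ITGB2, the chain of leukocyte integrins, was at 0.638, 0.528 and 0.707 FPKM with shCREBBP.572, against 3.19, 3.64 and 2.56 FPKM with shCREBBP.3753 (-1.34 ± 0.14, adjusted p = 0.00106). EZR, which ties actin to the membrane, was at 74.8, 75.5 and 80.6 FPKM with shCREBBP.572, against 193, 196 and 178 FPKM with shCREBBP.3753 (-1.28 ± 0.05, adjusted p = 7.68e-05). The tubulins TUBB2A and TUBA1B were higher. TUBB2A was at 34.2, 45.3 and 37.5 FPKM with shCREBBP.572, against 16.4, 20.9 and 15.9 FPKM with shCREBBP.3753 (1.09 ± 0.14, adjusted p = 0.00207). TUBA1B was at 602, 672 and 647 FPKM with shCREBBP.572, against 343, 371 and 399 FPKM with shCREBBP.3753 (0.79 ± 0.07, adjusted p = 0.000655). NF-kappaB subunits and targets were higher in 8 of 18 rows and lower in 4 (median 0.09; 5 higher without shCREBBP.572 replicate 1 or 2 or without shCREBBP.3753 replicate 3). Among the targets, TRAF1 was at 1.68, 1.28 and 1.51 FPKM with shCREBBP.572, against 6.41, 5.06 and 5.59 FPKM with shCREBBP.3753 (-1.42 ± 0.12, adjusted p = 0.00056). ICAM1 was at 11.1, 12.8 and 11.9 FPKM with shCREBBP.572, against 23.7, 22.8 and 25.7 FPKM with shCREBBP.3753 (-0.96 ± 0.07, adjusted p = 0.000417). The subunit NFKB1, picked after its value was seen, was at 22.9, 23.6 and 21.6 FPKM with shCREBBP.572, against 12.9, 16.4 and 13.9 FPKM with shCREBBP.3753 (0.63). NFKB1 thus lay on the side of the 8 higher rows, and TRAF1 and ICAM1 were among the 4 lower. BCL3 was higher as well (0.72 ± 0.17, limma adjusted p = 0.0177), a call lost without shCREBBP.3753 replicate 2 (0.0621) or 3 (0.0585). Of immediate early genes and CREB targets 4 of 22 rows were higher and 6 lower (median -0.01), against 17.7% and 21.3% of all rows. Only 2 were higher when replicate 1 or 2 of either hairpin was left out, and 1 with all 12 libraries in the fit; 2 were lower at a mean of at least 5 FPKM. JUN, a subunit of the factor AP-1, was at 1.92, 2.88 and 2.68 FPKM with shCREBBP.572, against 8.64, 9.61 and 8.35 FPKM with shCREBBP.3753 (-1.51 ± 0.13, adjusted p = 0.000618).

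The counts of the remaining lists stand against 21.3% of all rows lower and 17.7% higher. Plasma cell and immunoglobulin secretion rows were lower in 7 of 22 and higher in 4 (median -0.14; 2 higher at a mean of at least 5 FPKM, and without shCREBBP.572 replicate 2 or 3 or any 1 shCREBBP.3753 library). The row of MZB1, a chaperone of immunoglobulin, with PROB1 was at 244, 217 and 226 FPKM with shCREBBP.572, against 369, 337 and 339 FPKM with shCREBBP.3753 (-0.61 ± 0.06 SE, limma adjusted p = 0.00097). IGJ, the joining chain of secreted antibody, was at 467, 442 and 523 FPKM with shCREBBP.572, against 702, 706 and 759.9 FPKM with shCREBBP.3753 (-0.60 ± 0.07, adjusted p = 0.0017). Hypoxia genes fell in 7 of 17 rows and rose in 1 (median -0.31). None was higher without shCREBBP.572 replicate 1 or 3 or shCREBBP.3753 replicate 2. Nor was any with a pseudocount of 0.1, at a mean of at least 5 FPKM, or in rows above 0 in all 6 libraries. The same held for the 16 rows at 1 FPKM or more in both groups. Without shCREBBP.572 replicate 2 or shCREBBP.3753 replicate 3, 4 were lower. P4HA1, a collagen hydroxylase, was at 21.4, 18 and 22.3 FPKM with shCREBBP.572, against 42.7, 33.4 and 41.1 FPKM with shCREBBP.3753 (-0.89 ± 0.12, adjusted p = 0.00257). MYC targets and ribosome biogenesis genes fell in 10 of 39 rows and rose in 6 (median -0.03; 6 lower with all 12 libraries in the fit). The helicase DDX21 was at 112, 111 and 127 FPKM with shCREBBP.572, against 219.9, 225 and 235 FPKM with shCREBBP.3753 (-0.95 ± 0.06, adjusted p = 0.000261), and MYC itself, picked after its value was seen, at 0.25. Of 21 metallothionein and redox rows 7 were higher and 5 lower (median 0.06; 2 higher without shCREBBP.572 replicate 1 or shCREBBP.3753 replicate 1 or 2, and 3 or 4 with no filter, with no variance trend or with all 12 libraries in the fit). GPX4, which removes lipid peroxides, was at 226, 214 and 209.7 FPKM with shCREBBP.572, against 139, 134 and 128 FPKM with shCREBBP.3753 (0.69 ± 0.05, adjusted p = 0.000319). HMOX1, which degrades haem, was at 2.71, 2.8 and 3.72 FPKM with shCREBBP.572, against 6.86, 4.93 and 5.96 FPKM with shCREBBP.3753 (-0.76 ± 0.15, adjusted p = 0.0102). TXNIP, which binds and inhibits thioredoxin, was at 59.9, 57.3 and 65.6 FPKM with shCREBBP.572, against 51.1, 50.7 and 55.4 FPKM with shCREBBP.3753 (0.21 ± 0.07, adjusted p = 0.0447), a call that ended without shCREBBP.572 replicate 1 or 3 and without shCREBBP.3753 replicate 1 or 2 (adjusted p = 0.0875 to 0.131). It also ended with all 12 libraries in the limma fit (adjusted p = 0.9), with no filter (0.0651) and with no variance trend (0.0765). The assembled locus of TXNIP is wide (chromosome 1, 144146811 to 146467744), so its level may not be that of TXNIP alone. In scramble replicate 3 it was listed at 0.

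Since both groups carry a hairpin, the machinery that processes hairpins was listed as well. Of its 13 rows 6 were higher and 2 lower (median 0.08; 3 higher without shCREBBP.3753 replicate 1, and 1 lower when any library but shCREBBP.3753 replicate 3 was left out). DICER1, the enzyme that cuts hairpins, was at 13, 13.2 and 13.5 FPKM with shCREBBP.572, against 19.3, 22.1 and 23.3 FPKM with shCREBBP.3753 (-0.66 ± 0.08 SE, limma adjusted p = 0.00161). AGO2, the slicer, was at 23, 19.8 and 19 FPKM with shCREBBP.572, against 13.3, 13.7 and 9.74 FPKM with shCREBBP.3753 (0.71 ± 0.14, adjusted p = 0.0105). DROSHA, the nuclear processor, was at 23, 24.7 and 22.7 FPKM with shCREBBP.572, against 16.1, 16.6 and 16.5 FPKM with shCREBBP.3753 (0.49 ± 0.05, adjusted p = 0.00133). DICER1 was thus lower and the other 2 higher with shCREBBP.572.

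The libraries of the other 2 groups show, as a description with no test, where each hairpin stood. LGALS3BP was at 3.33, 3.32 and 3.11 FPKM with shCREBBP.1027 and at 2.5, 2.96 and 3.62 FPKM in scramble, and BST2 at 9.73, 8.25 and 7.39 and 6.39, 8.76 and 7.7 FPKM in the same order. In both genes the shCREBBP.572 libraries were the lowest of the 12 and the shCREBBP.3753 libraries by far the highest. FCRLA had the same extremes, with 23.6, 27 and 28 FPKM with shCREBBP.1027 and 28, 34.3 and 32.8 FPKM in scramble. SPIB was at 3.78, 4.19 and 3.41 FPKM with shCREBBP.1027 and 19.96, 22.2 and 24.4 FPKM in scramble, which put the shCREBBP.3753 libraries between scramble and the other two hairpins. MCM2 was at 49.5, 49.3 and 48.8 and 75.5, 85.6 and 86.6 FPKM in that order, so that shCREBBP.3753 was the lowest of the 4 groups and shCREBBP.572 close to scramble. HIST1H1B likewise was at 1206, 1187 and 1151 and 1718, 2477 and 2592 FPKM, with shCREBBP.3753 lowest. PHGDH was at 111, 113 and 112 and 76.2, 81.2 and 80.6 FPKM, and here shCREBBP.3753 was the lowest and shCREBBP.572 the highest. TWF1, at 33.8, 40.6 and 36.2 and 24.2, 37.2 and 34.1 FPKM, was lowest with shCREBBP.572, and SLC2A5, at 38.9, 41.1 and 35.9 and 17.6, 25.1 and 25.7 FPKM, likewise.

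**Figure D5:**
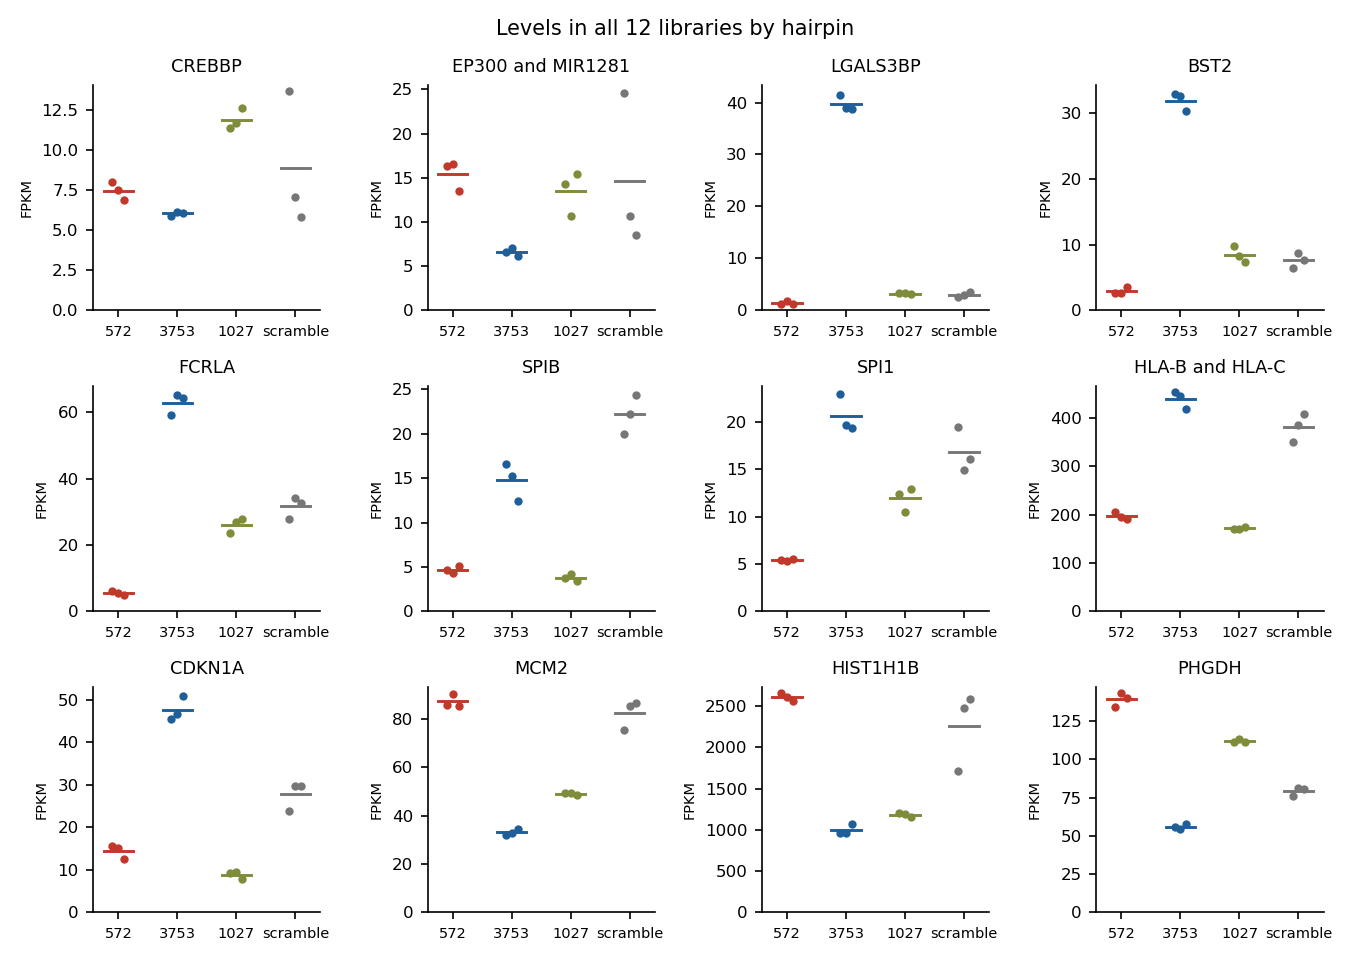
Levels in FPKM (vertical axes from 0) of 12 rows in all 12 libraries, with 1 point per library and the mean as a bar; groups from left are shCREBBP.572, shCREBBP.3753, shCREBBP.1027 and scramble. LGALS3BP and BST2 are highest with shCREBBP.3753, SPI1 and FCRLA lowest with shCREBBP.572, and CREBBP overlaps between the 2 hairpins compared and scramble.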

How the data were processed

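Total RNA of MD901 cells was sequenced after removal of ribosomal RNA, per the labels' protocols. The authors deposited 1 table of 24181 rows, each an assembled locus with its gene names, read as FPKM because the submitters' processing notes name Cufflinks; the table states no unit. Those notes also name CASAVA 1.8, TopHat2 and the build hg19; how strand was used, or which annotation, is not given in the sources used here. Rows with several names (504 of those tested) or with a name on several tested rows (2002), near-identical copies and antisense genes are uncertain. Intervals are on hg19, counted from 1.

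The 11757 rows whose mean over the 12 libraries reached 1 FPKM were kept. The 6 libraries were fitted on log2(FPKM + 1) by limma 3.58.1 under R 4.3.3 (variance trend, empirical Bayes), with Benjamini-Hochberg adjustment and a threshold of 0.05. The scale understates changes of low rows. Of the tested rows, 598 held a 0 in at least 1 of the 6 libraries. Low values of a row lay on steps of 1 read in 25.5% to 28.5% of ratios, against 0.63% to 0.7% at other offsets, which gave relative depths only; whole reads were not recovered, so no count test or counting interval was possible.

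Samples were grouped by their titles. Each list member was taken from its most abundant tested row on the primary chromosomes, and a row shared by members was counted once. Lists are described by counts and medians, with no set test. Named genes are CREBBP and EP300; the 15 largest rises and falls among called rows with 1 name, on 1 tested row, above 0 in all 6 libraries and with separate groups; per list up to 5 called members above 0 with the largest difference; and SPIB, HLA-DRA, CIITA and TXNIP. Small RNA genes were tested but not named, and some genes and 1 list are not reported here. Members and lists were chosen with earlier results of these data known. Alternatives were another pseudocount, filter, scaling, variance model, set of libraries, a replicate block, leaving out each library, and a correction for GC content and length added after seeing the data.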

Additional observations from a re-analysis of the deposited data

How the results depend on the processing

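Across the alternatives, the counts of rows higher (1520 to 2518) and lower (1846 to 2597) stayed within 1.5 times those reported, and none of the 169 named rows tested changed direction when called. Without the filter the counts were 1767 and 2238, at a mean of at least 5 FPKM 1825 and 2213, with all 12 libraries in the fit 1726 and 2111, with upper quartile scaling 2518 and 2171, and leaving out each library 1520 to 1851 and 1846 to 2411. Replicate numbers did not pair the samples: deviations of same-numbered libraries correlated at 0.053, 0.023 and 0.102, and the replicate block gave 2038 higher and 2408 lower.

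The CREBBP difference of 0.26 was no longer called without the filter (0.26, limma adjusted p = 0.111), with all 12 libraries (0.26, 0.381), with the replicate block (0.26, 0.0805) and after the GC and length correction (0.13, 0.226), and ranged from 0.22 to 0.31 when each library was left out. The cause was not tested. Of the 169 named rows, 157 to 169 kept their state in the alternatives that tested all of them, as did 141 of 141 at a mean of at least 5 FPKM and 167 of 168 with the GC and length correction. Among others, TXNIP, MT2A, DNMT3A, NR4A1, SOCS1, ATP5C1 and BBC3 lost their calls in several. Read numbers are unknown, so depth sets no stated limit.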
